A study of Mus musculus with 23 samples.

Results

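Bdnf, Ntf3, their receptor genes Ntrk2 and Ntrk3, the granins Vgf and Scg2 and the prohormone convertase Pcsk1 were followed through 23 RNA sequencing libraries of mouse hippocampus. They were picked by symbol, 7 genes of the 24985 rows that each of the deposited count tables holds, and 7 of 7 passed the filter on low counts in both tables. The mice were on the C57BL6/J background and were either WT for Acss2, which encodes an enzyme that makes acetyl-CoA from acetate, or had lost exons 3 to 7 of it on 1 allele (Het) or on both (KO). The loss was present from the embryo on and in every tissue, so it is not particular to neurons, to adults or to the time of learning. Whole hippocampi, cut out by hand from home cage mice, gave 2 WT, 2 Het and 2 KO libraries, all in the batch labelled B0. Dorsal sections of 1 mm gave 5 WT and 5 KO libraries from mice taken straight from the home cage, and 3 WT and 4 KO libraries from mice taken 30 min after a fear conditioning session with a single shock. A home cage mouse had neither the shock nor the new context, so a difference between fear and home cage covers both. The labels put the dorsal libraries in batches B1, B2 and B3. They do not state the age or sex of the mice, or that each library is a separate animal, and a p-value here measures the spread between these libraries.

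Neurotrophins are secreted growth factors that are made as larger precursors and cut to their active form. BDNF, the product of Bdnf, binds the receptor tyrosine kinase TrkB (Ntrk2), and NT-3, the product of Ntf3, binds TrkC (Ntrk3) most strongly. In hippocampal neurons Bdnf transcription is known to rise with synaptic activity from some of its many start sites, and BDNF acting on TrkB is known for its part in long-term potentiation and memory. Vgf and Scg2 encode granins, acidic proteins that are packed into dense-core vesicles and cut into peptides, and Pcsk1 encodes prohormone convertase 1/3, which does part of that cutting. Both granins and the convertase belong to the genes known to be induced in neurons by activity or growth factors, often through CREB, a transcription factor that binds the cAMP response element.

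Because that element is the textbook link between activity and several of these genes, the start sites that hold it are shown beside those of Ntf3, the member with the largest log2 differences in the dorsal libraries. RefSeq start sites on GRCm38.p6 gave 12 windows of 300 bases, from 250 before to 50 after the start, for 5 of the 7 members, namely 7 for Bdnf, 2 for Ntf3 and 1 each for Ntrk2, Scg2 and Pcsk1. Each window was searched on both strands for the whole element, TGACGTCA, which reads the same on both strands, and for its half-site, TGACG or CGTCA, which the whole element also contains. Capitals mark the matches.
Bdnf, chr2:109692186-109692485, plus strand: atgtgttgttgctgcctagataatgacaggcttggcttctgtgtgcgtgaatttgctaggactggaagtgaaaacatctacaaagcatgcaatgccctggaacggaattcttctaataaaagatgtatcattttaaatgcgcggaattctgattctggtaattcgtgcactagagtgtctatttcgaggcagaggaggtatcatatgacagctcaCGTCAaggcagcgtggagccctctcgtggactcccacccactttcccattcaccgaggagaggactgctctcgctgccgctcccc
Scg2, chr1:79439977-79440276, minus strand: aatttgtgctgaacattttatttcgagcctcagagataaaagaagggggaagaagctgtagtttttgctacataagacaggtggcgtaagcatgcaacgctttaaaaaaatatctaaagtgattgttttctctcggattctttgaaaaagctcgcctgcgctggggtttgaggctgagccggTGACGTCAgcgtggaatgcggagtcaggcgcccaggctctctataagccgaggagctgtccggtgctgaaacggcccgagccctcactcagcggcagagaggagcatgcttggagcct
Pcsk1, chr13:75089607-75089906, plus strand: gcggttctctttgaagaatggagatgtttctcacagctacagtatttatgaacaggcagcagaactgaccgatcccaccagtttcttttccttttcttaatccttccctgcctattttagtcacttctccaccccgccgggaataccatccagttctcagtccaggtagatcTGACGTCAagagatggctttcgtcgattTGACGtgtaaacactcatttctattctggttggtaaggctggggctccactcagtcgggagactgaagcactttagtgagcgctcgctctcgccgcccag
Ntf3, chr6:126166695-126166994, minus strand: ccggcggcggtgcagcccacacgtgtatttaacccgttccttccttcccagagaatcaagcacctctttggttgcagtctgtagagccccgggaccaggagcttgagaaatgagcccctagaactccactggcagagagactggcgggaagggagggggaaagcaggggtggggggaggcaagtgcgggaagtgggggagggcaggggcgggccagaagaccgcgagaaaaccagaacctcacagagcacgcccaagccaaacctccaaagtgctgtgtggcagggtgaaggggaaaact
Ntf3, chr6:126164911-126165210, minus strand: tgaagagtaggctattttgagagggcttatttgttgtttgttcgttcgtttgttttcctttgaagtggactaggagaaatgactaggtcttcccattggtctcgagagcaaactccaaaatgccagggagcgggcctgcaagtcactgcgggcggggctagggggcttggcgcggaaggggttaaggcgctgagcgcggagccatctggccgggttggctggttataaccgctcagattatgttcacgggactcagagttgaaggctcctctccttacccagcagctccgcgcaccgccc
The whole element stood in the windows of Scg2, beginning 68 bases before the start, and of Pcsk1, beginning 78 bases before it, and in 1.79% of the 32851 mouse windows of the same length. The Pcsk1 window held a further half-site that began 50 bases before the start. A half-site stood in 20.8% of all windows. Of the 7 Bdnf windows, the third along the gene held 1 half-site, which began 35 bases before the start, and the other 6 held none. The 2 Ntf3 windows and the Ntrk2 window held neither form. A match describes these letters only, and no binding was measured.

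On mm10 (GENCODE release M21), Bdnf (ENSMUSG00000048482.14) lies at chr2:109674700-109727007 on the plus strand and has 11 annotated transcripts from 9 start sites. Ntf3 (ENSMUSG00000049107.13) lies at chr6:126101412-126166910 on the minus strand. Ntrk2 (ENSMUSG00000055254.15) lies at chr13:58806569-59133970 on the plus strand, and Ntrk3 (ENSMUSG00000059146.12) at chr7:78175959-78738012 on the minus strand. Vgf (ENSMUSG00000037428.14) lies at chr5:137026392-137033351 on the plus strand, Scg2 (ENSMUSG00000050711.7) at chr1:79434669-79440120 on the minus strand and Pcsk1 (ENSMUSG00000021587.5) at chr13:75089826-75134861 on the plus strand. The counts are 1 number per gene. They therefore hold every start site of Bdnf together, and the full-length receptors together with the truncated forms of Ntrk2 and Ntrk3 that lack the kinase. The antisense gene Gm45346 covers 896 exonic bases of Bdnf. The strand setting of the counts is not stated. If strand was not kept, reads of Gm45346 would be counted with those of Bdnf or lost.

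Library totals were 18814460 to 27293661 counts in whole hippocampus and 5362773 to 23412644 in the dorsal libraries, lowest in batch B1 (5362773 to 9109104). Acss2 followed the labels, at a mean of 60.6 CPM (read counts relative to library size, scaled by TMM) in WT, 32.8 in Het and 6.88 in KO whole hippocampus, and in the dorsal groups at 65.2 and 57.0 in WT before and after fear, and 4.67 and 5.53 in KO likewise. Hippocampal field markers were present in each library, but their level, taken as the mean log2 CPM over a list, was not even across groups. In WT the 8 CA1 markers were at 5.13 to 5.68 without and 5.94 to 6.71 with fear conditioning, and in KO at 5.15 to 6.33 and 5.18 to 6.40. The 10 CA2 and CA3 markers were in WT at 5.89 to 6.42 and 4.50 to 5.54, and in KO at 5.41 to 6.31 and 5.44 to 5.83, so 2 of the 3 WT fear libraries had the highest CA1 and the lowest CA2 and CA3 levels, while WT fear 1, at 5.94 and 5.54, lay within the range of the KO libraries. The WT fear libraries stood wholly apart in the 8 ependymal markers, at -0.53 to -0.03 against 2.12 to 3.57 in WT home cage. KO was at 1.47 to 3.75 before and 1.72 to 3.08 after fear. The WT fear libraries were at 6.87 to 7.21 in the 12 oligodendrocyte markers, against 7.68 to 8.72 in WT home cage. Separately, 4 haemoglobin genes were at 0 reads in every library of both tables, so they tell nothing about the groups. In bulk tissue, fewer cells of a type and less RNA per cell cannot be told apart.

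Divided by the length of merged exons, to make genes comparable, the order of the levels was Scg2, Vgf, Ntrk2 and Bdnf, followed by Ntf3, Pcsk1 and Ntrk3. In dorsal WT home cage the means were 114 CPM per kb for Scg2, 46.6 for Vgf, 29.1 for Ntrk2, 15.6 for Bdnf, 8.94 for Ntf3, 3.65 for Pcsk1 and 2.78 for Ntrk3. The ranges of Ntrk2 and Bdnf did not overlap in any group, so Ntrk2 was above its ligand gene on this scale. For the other pair the order of the means was the reverse in the dorsal groups and in WT whole hippocampus, with Ntf3 above Ntrk3. In WT fear their ranges overlapped (3.20 to 6.81 against 2.87 to 3.70 CPM per kb). In whole hippocampus the mean of Ntf3 was below that of Ntrk3 in Het (2.84 against 3.61) and KO (3.25 against 3.28). Vgf and Ntrk2 were not separable in the WT fear and KO fear groups, where the per-kb ranges overlapped, and neither were Pcsk1 and Ntrk3 in the dorsal WT groups. In whole hippocampus the means in WT were 85.7 CPM per kb for Scg2, 67.3 for Vgf, 31.9 for Ntrk2, 10.8 for Bdnf, 5.99 for Pcsk1, 4.24 for Ntf3 and 3.51 for Ntrk3. Ntf3 was thus above Pcsk1 in the dorsal WT home cage libraries and below it in whole hippocampus. The tables come from separate experiments and the dissections differ, so levels from them are set side by side only. The merged exons of Ntrk2 (19292 bases) and Ntrk3 (30170 bases) hold long alternative ends, which lowers their per-kb values.

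**Figure D1:**
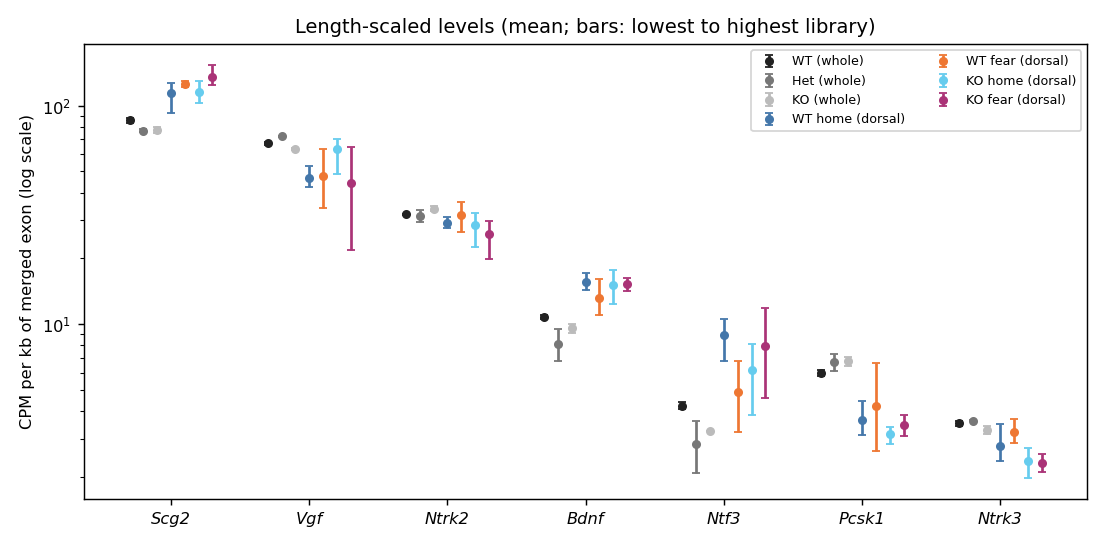
Level of each gene as CPM per kb of merged exon (log axis), as the mean of each of the 7 groups with bars from the lowest to the highest library. Scg2 and Vgf lie at the top, Ntrk2 lies above Bdnf in each group, and the means of Ntf3 and Pcsk1 change places between whole and dorsal hippocampus.

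After fear conditioning in WT, 0 of the 7 genes passed an adjusted p of 0.05, against 1.63% of the 14808 genes tested. Rapid activity genes did pass in the same libraries. Fos, an AP-1 transcription factor, rose by a log2 difference of 2.54 ± 0.31 (SE, n = 3 against 5, adjusted p = 0.0015, edgeR). Arc, which acts at synapses on receptor uptake, rose by 1.98 ± 0.27 (adjusted p = 0.0021), and Egr1, a zinc finger factor, by 1.52 ± 0.23 (adjusted p = 0.0080). Npas4, a factor known to drive Bdnf, was at 0.93 ± 0.38 and did not pass (adjusted p = 0.174). Without adjustment, 1 of the 7 genes, Ntf3, had a p under 0.05, as had 20.8% of all genes, and DESeq2 called the same gene, against 6.08% of genes. In KO, 0 of the 7 passed between fear and home cage, as 0% of all genes did, with Fos at 1.28 and Arc at 1.16 (adjusted p = 0.404 for each). Their home cage means were higher in KO than in WT, 11.8 against 4.94 CPM for Fos and 131 against 76.4 for Arc. Neither home cage difference passed (adjusted p = 0.440 for each, edgeR). After fear the means were 27.7 in KO and 25.0 in WT for Fos, and 278 and 279 for Arc. Between KO home cage and KO fear, the ranges of Fos and Arc did not overlap, while those of Egr1 (0.14) and Npas4 (0.42) did. There 2 of the 7, Ntf3 and Vgf, had an unadjusted p under 0.05, against 4.82% of all genes, and DESeq2 called 0 of the 7 and 6 of all genes (0.0303%).

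Between the genotypes in the home cage, 0 of the 7 passed, against 0.00675% of genes, which is 1 gene, Acss2. The number with an unadjusted p under 0.05 was also 0, against 11.3% of genes, and DESeq2 called 0 of the 7 and 0.0101% of genes. After fear conditioning, 2 of the 7 differed between KO and WT, Ntf3 higher and Ntrk2 lower. The background there was wide, 22.3% of genes (10.2% higher and 12.1% lower), so 2 of 7 is near the share of all genes. DESeq2 called 4 of the 7, adding Ntrk3 and Vgf, against 28.1% of genes. In the interaction, which is the KO fear difference minus the WT one, 1 of the 7 passed, Ntf3, against 0.479% of genes. The dorsal comparisons share libraries with each other, so their results are not independent of each other.

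**Figure D2:**
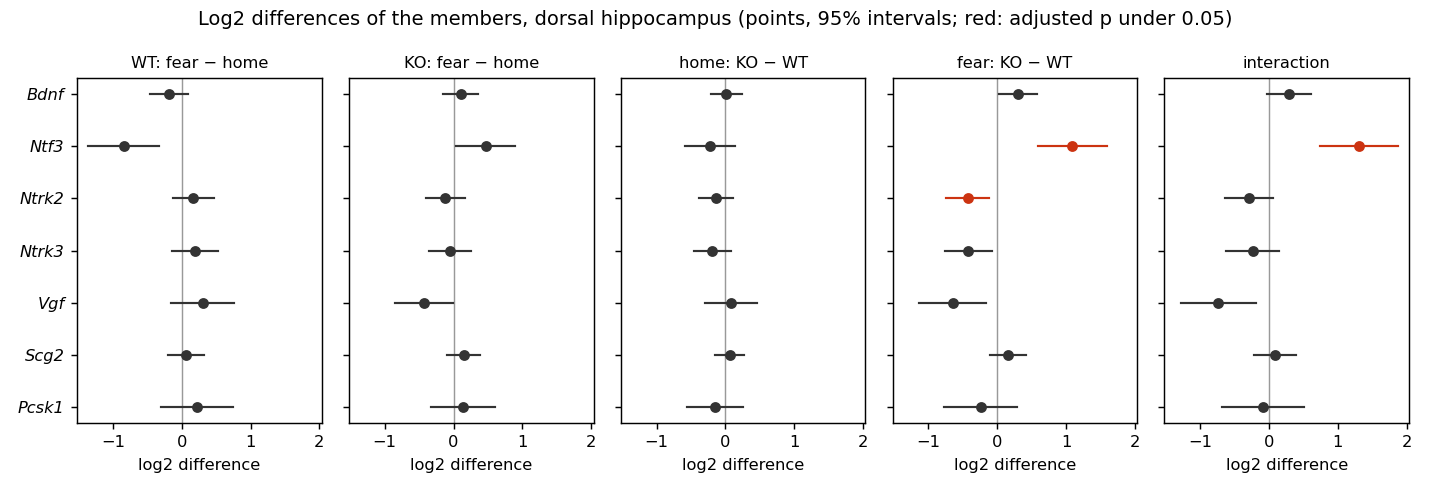
Log2 differences of the 7 genes in the 5 dorsal comparisons, with 95% intervals, red where the adjusted p was under 0.05. Ntf3 passed in KO against WT after fear and in the interaction, and Ntrk2 passed in KO against WT after fear.

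Bdnf was at 94.9, 95.9, 88.7, 100.3 and 106 CPM in the 5 WT home cage libraries, and at 100.4, 68.4 and 78.0 CPM in the 3 WT fear libraries. The first fear library lay inside the home cage range and the others below it, so the groups overlapped and the fear mean was not the higher one. The log2 difference was -0.19 ± 0.13 (SE), with a 95% interval from -0.465 to 0.0915 (adjusted p = 0.421). In the same libraries Fos and Arc had passed the test. The interval is for Bdnf RNA summed over its start sites at 30 min, in tissue whose field markers also differed between the groups. The CA2 and CA3 level was 5.54, 4.50 and 5.02 in WT fear 1, 2 and 3, against 5.89 to 6.42 in WT home cage. The part of this difference in the Bdnf value was not tested, so the interval does not bound a rise within the cells.

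In KO, Bdnf was at 109, 106, 91.0, 87.7 and 76.6 CPM in the home cage and at 100.7, 96.5, 95.8 and 88.5 CPM after fear. The KO fear libraries lay within the home cage range, and the log2 difference was 0.10 ± 0.12 (adjusted p = 0.968). Between the genotypes, Bdnf was at 0.011 ± 0.11 in the home cage, with an interval from -0.21 to 0.24, and the groups overlapped. After fear it was at 0.30 ± 0.13 (adjusted p = 0.105), and the interaction was 0.29 ± 0.15 (adjusted p = 0.271). Leaving out the WT fear 1 library, the one of its group that was as high as home cage, brought KO against WT after fear to 0.44 (adjusted p = 0.019).

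Ntf3, the other ligand, had the lowest mean CPM of the 7 genes and the largest log2 differences in each dorsal comparison. It was at 14.0, 11.7, 15.02, 17.7 and 18.2 CPM in WT home cage and at 11.7, 5.48 and 8.08 CPM in WT fear. The fear libraries lay at or below the bottom of the home cage range, where WT fear 1 and WT home cage 2 were level. The log2 difference was -0.84 ± 0.25, with an interval from -1.36 to -0.323, and it did not pass over all genes (adjusted p = 0.0773, edgeR). DESeq2 gave -0.81 with an adjusted p of 0.0273, and the fit without WT fear 1 gave -1.08 with 0.0229. Within batch B1, 3 WT fear libraries against 2 WT home cage ones gave -0.64 ± 0.28 (adjusted p = 0.362).

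In KO, Ntf3 was at 13.8, 10.9, 13.9, 6.57 and 7.91 CPM in the home cage and at 20.4, 18.2, 8.01 and 7.87 CPM after fear. These values split by batch. The home cage libraries of B2 were at 10.9 to 13.9 and those of B3 at 6.57 and 7.91, and the fear libraries of B1 were at 20.4 and 18.2 and those of B3 at 8.01 and 7.87. With batch in the fit, the KO log2 difference between fear and home cage was 0.46 ± 0.20 (adjusted p = 0.968). Within B3, the one batch that holds both KO groups, it was 0.12 ± 0.17.

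After fear conditioning Ntf3 was higher in KO than in WT by a log2 difference of 1.09 ± 0.24 (interval 0.588 to 1.59, adjusted p = 0.0155), which is 2.13-fold. The 2 highest KO fear libraries, both of B1, lay above each WT fear library, while the 2 of B3 lay within the WT fear range, so the groups overlapped. Within B1, where 2 KO fear libraries stood against 3 WT fear ones, the log2 difference was 1.25 ± 0.26 (adjusted p = 0.0131). Without a batch term it was 0.68 (adjusted p = 0.208), and with these 2 groups alone 0.69 (adjusted p = 0.271). The call was also lost without WT fear 2 (0.83, adjusted p = 0.0713), without WT fear 3 (1.08, adjusted p = 0.0656) and without KO fear 2 (1.04, adjusted p = 0.110).

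The difference of the fear responses themselves, the interaction, was 1.30 ± 0.27 for Ntf3 (interval 0.735 to 1.87, adjusted p = 0.0458). It passed by a narrow margin. Of the 17 fits that each left out 1 library, 4 kept it past the threshold, with values from 1.05 to 1.55 over the 17, and without a batch term it was 1.21 (adjusted p = 0.297). The call was lost without WT home cage 2, 3, 4 or 5, WT fear 2 or 3, KO home cage 2, 4 or 5, and any of KO fear 1 to 4. Over the same 17 fits the number of all genes that passed ran from 0 to 1007, against 71 with every library. No KO home cage library was run in B1 and no WT library in B3, so the interaction rests on batch differences that were estimated from other groups. In the home cage, Ntf3 differed between the genotypes by -0.22 ± 0.17, which did not pass.

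Markers of hippocampal fields and of other cell types moved in the same comparisons as Ntf3. In KO against WT after fear, 6 of 8 CA1 markers were lower, with a median log2 difference of -1.12, and 4 of 10 CA2 and CA3 markers were higher, with a median of 0.61. In WT fear against home cage, 5 of 8 CA1 markers were higher (median 1.18) and 3 of 10 CA2 and CA3 markers lower (median -0.74). Ependymal markers moved furthest, with 8 of 8 higher in KO against WT after fear (median 3.41), 4 of 8 lower in WT fear (median -3.55) and 3 of 8 higher in the interaction (median 3.65). Choroid plexus markers were higher in KO against WT after fear for 6 of 8 (median 2.05), and lower in WT fear for 1 of 8. Of the 8 dentate gyrus markers, 3 were lower and 0 higher in KO against WT after fear (median -0.56). In WT fear against home cage 0 of them passed (median 0.23), and in the interaction 0 passed (median -0.28). The library lowest in Ntf3, WT fear 2, had the lowest CA2 and CA3 level of the dorsal libraries, 4.50, and the 2 libraries highest in Ntf3, KO fear 1 and 2, had CA1 levels of 5.21 and 5.18, among the lowest. The part of these markers in the Ntf3 differences was not tested.

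**Figure D3:**
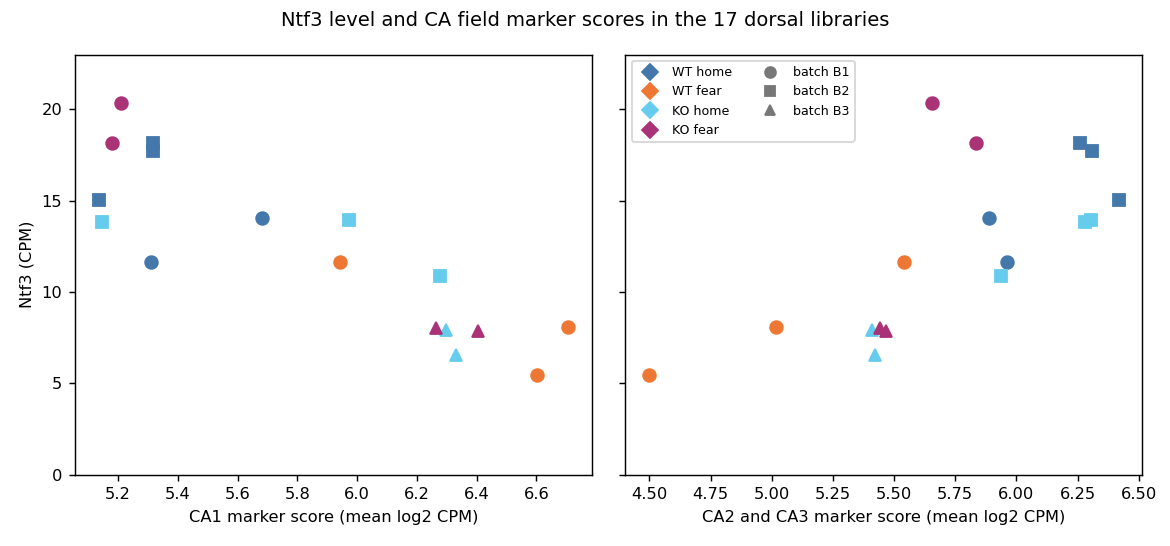
Ntf3 level (CPM) in each of the 17 dorsal libraries against the CA1 marker level (left) and the CA2 and CA3 marker level (right), both as mean log2 CPM over the list, with colour for group and shape for batch. The WT fear libraries, at 5.48 to 11.7 CPM, lie at the high end of CA1 and the low end of CA2 and CA3 in 2 of 3 cases, and KO fear libraries of B1 and B3 lie apart.

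Ntrk2, the TrkB receptor gene, had the highest CPM of the 7. It was at 552, 571, 596, 553 and 532 CPM in WT home cage, a narrow range, and at 512, 700.0 and 614 CPM in WT fear. In KO it was at 434, 554, 622, 603 and 536 CPM in the home cage and at 490.2, 382, 557 and 573 CPM after fear. The 2 KO fear libraries of B1 were below each WT fear library and those of B3 lay inside the WT fear range.

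KO was lower than WT after fear by 0.43 ± 0.15 on the log2 scale (interval -0.737 to -0.116, adjusted p = 0.0470), a 1.34-fold difference. The fear differences were 0.17 ± 0.14 in WT and -0.12 in KO, and neither passed, nor did the interaction, -0.29 (adjusted p = 0.309). The call after fear stood close to the threshold. It held in 7 of 17 fits that left out 1 library, and was lost without WT home cage 2, 3 or 4, WT fear 2 or 3, KO home cage 2 or 4, or KO fear 1, 2 or 3. Within B1 the log2 difference was -0.47 ± 0.18 (adjusted p = 0.0825), and it was -0.28 (adjusted p = 0.187) without a batch term and -0.27 (adjusted p = 0.294) with the 2 groups alone. Astrocytes also carry Ntrk2 RNA, chiefly for the truncated form, and the 10 astrocyte markers were at 8.17 to 8.40 in WT fear and 8.06 to 8.67 in KO fear. In this comparison 3 of 10 astrocyte markers were higher and 0 lower, with a median of 0.22, and 9 of 12 oligodendrocyte markers were higher in KO. The part of these cell types in the Ntrk2 value was not tested.

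Ntrk3, the TrkC receptor gene, was at 71.7 to 106 CPM in WT home cage, with a median of 81.9, and at 86.6, 93.3 and 111 CPM in WT fear. It was at 59.6 to 81.7 CPM in KO home cage and at 68.2, 70.8, 63.3 and 76.8 CPM in KO fear. The 2 fear groups did not overlap, which was so for 1 of the 7 genes and for 21.4% of all genes tested. The log2 difference of KO against WT after fear, -0.42 ± 0.16, fell short of the threshold (adjusted p = 0.0651). DESeq2 gave -0.44 with an adjusted p of 0.0398, and leaving out the batch term gave -0.48 with 0.0389. It also passed without WT home cage 1 (-0.48, adjusted p = 0.0206), WT fear 1 (-0.52, adjusted p = 0.0379), KO home cage 3 or 4 or KO fear 4. KO home cage was also at the lower value against WT home cage, by -0.19, which did not pass. The ligand and its receptor therefore stood on opposite sides of 0 after fear, Ntf3 at 1.09 and Ntrk3 at -0.42.

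Vgf, whose peptides act in synaptic plasticity and energy balance, was split by batch in KO fear. It was at 129.5, 126, 148, 157 and 133 CPM in WT home cage and at 100.5, 188, and 136 CPM in WT fear. In KO it was at 144, 197, 196, 191 and 208 CPM in the home cage and at 64.6, 95.7, 193 and 175 CPM after fear. KO fear thus had both the lowest values of the experiment, in B1, and values like KO home cage, in B3.

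The WT fear log2 difference of Vgf was 0.31 ± 0.22 (adjusted p = 0.422) and the KO one -0.43 ± 0.20 (unadjusted p = 0.0484, adjusted p = 0.968), which was -0.13 within B3. KO against WT after fear was -0.65 ± 0.23 with an adjusted p of 0.0513, just short of the threshold. Within B1 it was -0.81 ± 0.24 and passed (adjusted p = 0.0376), and by DESeq2 it was -0.67 (adjusted p = 0.0218). It also passed without WT fear 1 (-0.86, adjusted p = 0.0110), and without WT home cage 1 or 5 or KO home cage 2, 3 or 4. Other fits left little of it. It was -0.088 with the 2 groups alone (adjusted p = 0.887) and -0.096 without a batch term (adjusted p = 0.839), and it was -0.39 without WT fear 2 and -0.37 without KO fear 1 (adjusted p = 0.254 and 0.278). The interaction was -0.73 ± 0.26 (adjusted p = 0.124), and -0.96 (adjusted p = 0.0284) without WT fear 1, the lowest library of that group. In the home cage the fit gave 0.088 between KO and WT, and within B2 it was 0.30 ± 0.14. The group means were 187 CPM in KO and 139 in WT, before batch was taken into account.

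Scg2, the precursor of secretoneurin, overlapped between the groups throughout. Its WT libraries ran from 231 to 319 CPM without fear conditioning and from 305 to 326 with it, its KO libraries from 259 to 325 and from 311 to 387. The log2 differences were 0.059 ± 0.12 for WT fear, 0.15 for KO fear, 0.061 for KO against WT in the home cage and 0.15 after fear (adjusted p = 0.384). None of these passed, and the interaction was 0.090.

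Pcsk1 was at 18.6, 25.0, 20.8, 20.4 and 17.5 CPM in WT home cage and at 14.7, 37.4 and 18.8 CPM in WT fear. A single library, WT fear 2, carried the high value. With it the WT fear difference was 0.22 ± 0.25 on the log2 scale (adjusted p = 0.620), and without it -0.29. Likewise KO against WT after fear was -0.24 with it and 0.27 without it, and the interaction -0.086 with it and 0.43 without it. KO libraries lay in a narrower band, 15.9 to 19.1 CPM in the home cage and 17.3 to 21.5 CPM after fear. The direction for Pcsk1 in the comparisons with WT fear thus turned on that library.

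**Figure D4:**
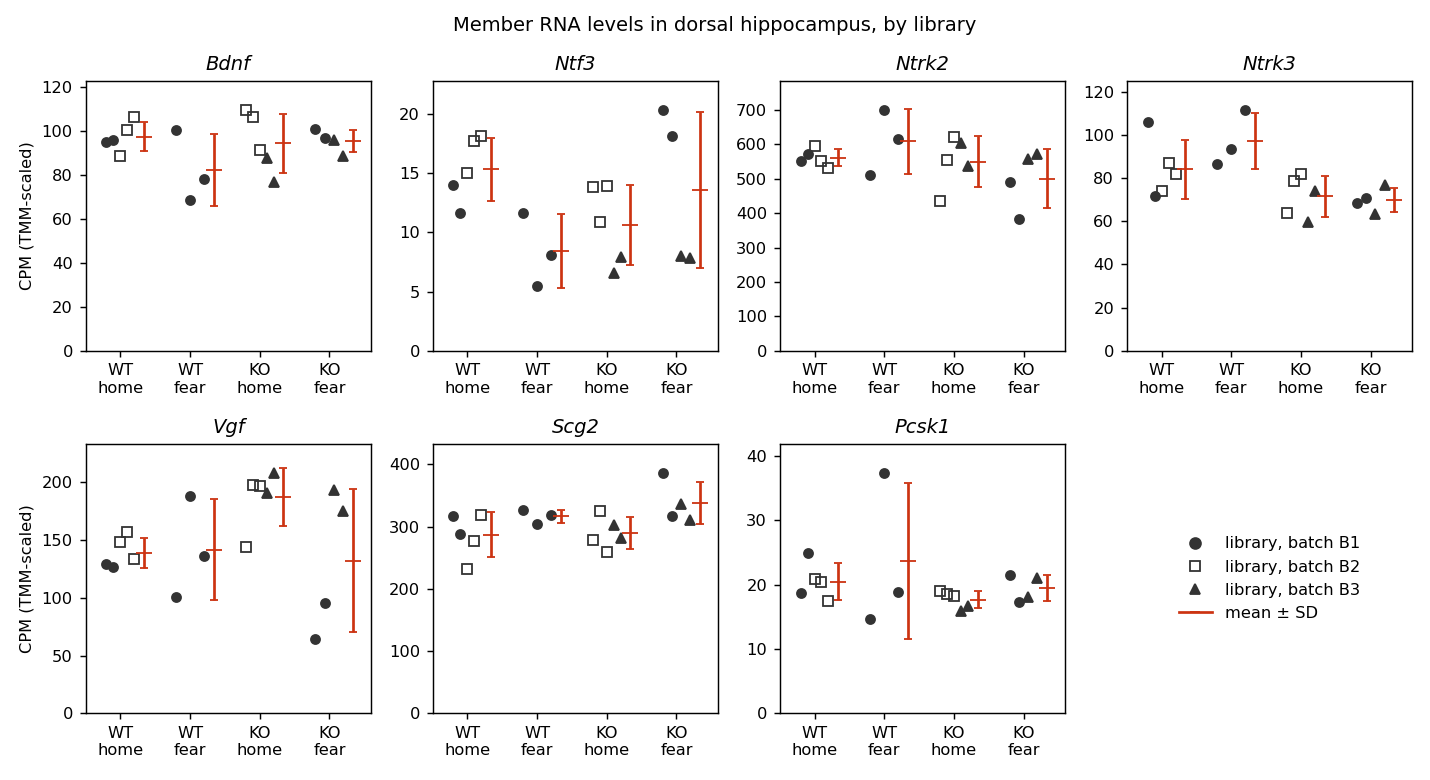
CPM of each gene in each of the 17 dorsal libraries, by group, with the batch as the point's shape and the mean ± SD beside them. Ntf3 and Vgf split by batch in KO fear, WT fear 2 is high for Pcsk1 and Vgf and low for Bdnf and Ntf3, and Scg2 overlaps in all 4 groups.

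WT fear 1 and WT fear 2 were the opposite ends of their group for 5 of the 7 genes. WT fear 2 had the lowest Bdnf and Ntf3 and the highest Ntrk2, Vgf and Pcsk1, and WT fear 1 the reverse. The neocortex marker level of WT fear 2 was 3.96, against 3.61 and 3.65 in the other WT fear libraries and 3.19 to 3.55 in WT home cage. In whole hippocampus the library Het 2 had the lowest Bdnf and Ntf3 and the highest Pcsk1 of the 6, and a neocortex level of 5.03 against 3.79 to 4.11 in the other 5. Its dentate gyrus level was 4.96 against 5.55 to 5.78. The part of neighbouring tissue in these libraries was not tested.

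In whole hippocampus 0 of the 7 genes passed between KO and WT, against 0.0388% of the 15453 genes tested, with 1 of 7 at an unadjusted p under 0.05 against 6.09% of genes. Between Het and WT 0 of the 7 passed, as 0% of genes did, with 2 of 7 at an unadjusted p under 0.05 against 13.9%. Between KO and Het 0 of the 7 passed, against 0.0841% of genes, with 1 of 7 at an unadjusted p under 0.05 against 13.2%. DESeq2 called 0 of the 7 in each of these, against 0.118%, 1.11% and 1.02% of genes in the same order. The groups have 2 libraries each, and 6 of the 7 genes had KO and WT values that did not overlap, as had 42.1% of all genes. The 12 oligodendrocyte markers were at 7.67 to 7.68 in WT, 7.89 to 7.93 in Het and 7.90 to 7.96 in KO. The 2 blood markers tested were at 2.44 to 3.43 in WT, -0.41 to -0.23 in Het and -0.13 to 0.28 in KO. Of these markers 0 passed in KO or Het against WT. Their part in the differences below was not tested.

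Bdnf was at 68.2 and 65.7 CPM in WT, 59.1 and 42.3 in Het and 56.8 and 62.6 in KO. Both WT libraries were above the others. The log2 difference was -0.17 ± 0.15 for KO against WT (adjusted p = 0.893), -0.41 ± 0.15 for Het against WT (unadjusted p = 0.0297, adjusted p = 0.328) and 0.24 ± 0.15 for KO against Het. Het 2 was the lower of the Het libraries. Without Het 1, Het 2 is the sole Het library and its spread is taken from the other groups. That fit gave -0.66 for Het against WT and 0.50 for KO against Het. It describes 1 library, so no p-value is given. Het 2 also had the highest neocortex and the lowest dentate gyrus marker level of the whole hippocampus libraries, and their part was not tested.

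Ntf3 followed Bdnf, at 7.00 and 7.54 CPM in WT, 6.18 and 3.57 in Het and 5.57 and 5.56 in KO. The log2 difference was -0.38 ± 0.24 for KO and -0.59 ± 0.25 for Het against WT, and neither passed (adjusted p = 0.849 and 0.361). Without Het 1 the Het value was -1.03 (adjusted p = 0.0135). In the receptors, Ntrk2 was at 617 and 612 CPM in WT, 568 and 642 in Het and 635 and 667 in KO, and its KO difference was 0.083 ± 0.081. Ntrk3 was at 109 and 103 CPM in WT, 108 and 109.6 in Het and 94.96 and 103 in KO, with a KO difference of -0.098 ± 0.061.

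Vgf was at 203 and 197 CPM in WT, 214 and 217 in Het and 190.2 and 186 in KO, so Het was above WT and WT above KO in each library. The log2 difference of KO against Het, -0.20 ± 0.049, had an unadjusted p of 0.0058 and an adjusted p of 0.258. Scg2 was at 221 and 210.2 CPM in WT, 196 and 190.3 in Het and 189 and 199.8 in KO. It was lower in both mutant groups by a similar value, -0.15 ± 0.056 in KO (unadjusted p = 0.0345, adjusted p = 0.802) and -0.16 ± 0.056 in Het (unadjusted p = 0.0285, adjusted p = 0.324), and neither passed. Pcsk1 was at 34.6 and 32.5 CPM in WT, 34.3 and 40.8 in Het and 36.2 and 39.6 in KO, with a KO difference of 0.17 ± 0.10.

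**Figure D5:**
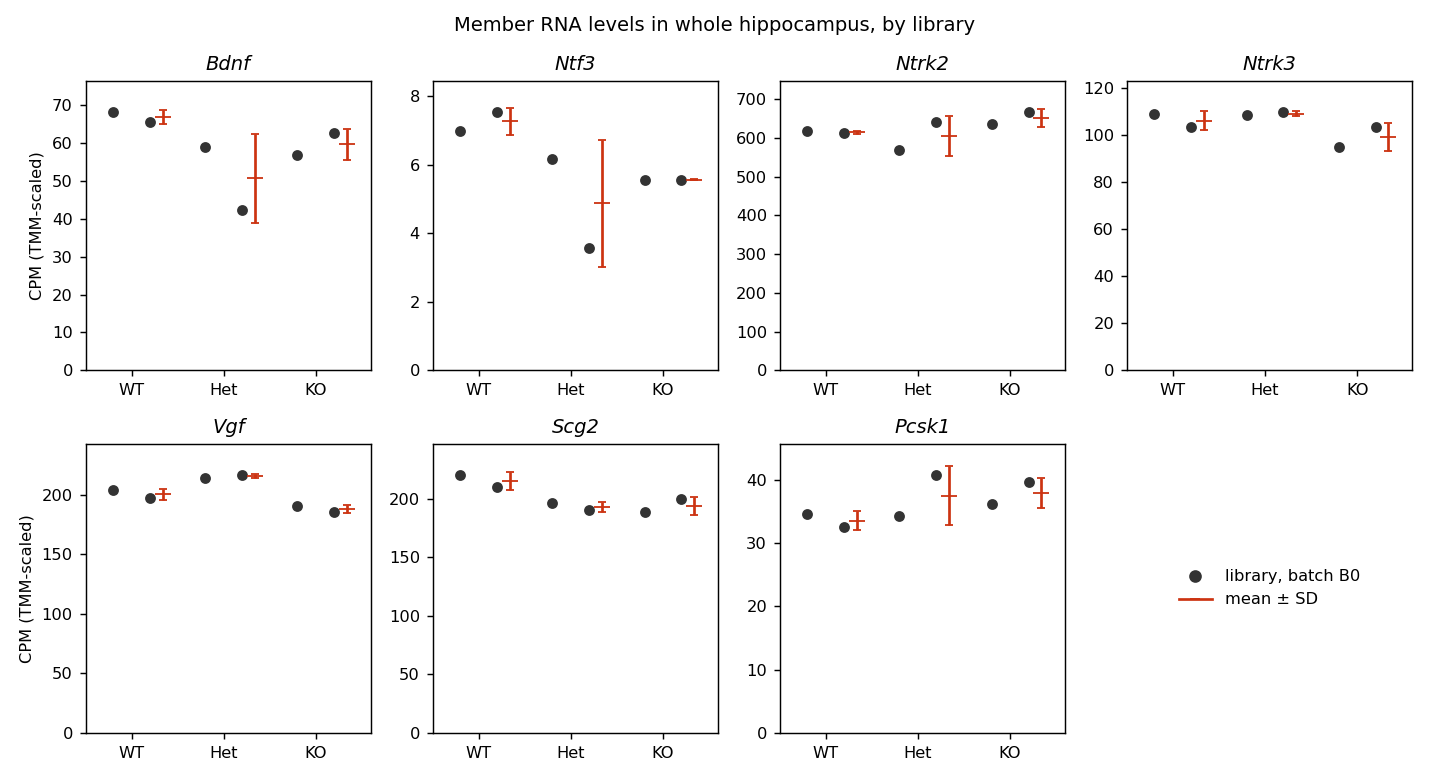
CPM of each gene in the 6 whole hippocampus libraries, by genotype, with the mean ± SD of 2 libraries. Bdnf and Ntf3 are highest in the WT libraries and lowest in Het 2, at 42.3 and 3.57 CPM.

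The other genes of the pathway were read from 6 lists, each given with its count and its median log2 difference. The median of all genes was -0.019 in WT fear against home cage, 0.014 in KO against WT after fear and 0.034 in the interaction. The share of all genes that passed in KO against WT after fear was 22.3%, with 10.2% higher and 12.1% lower. It was 1.63% in WT fear against home cage and 0.479% in the interaction. The list counts of each comparison are to be read against its share. The list of neurotrophin ligands and receptors holds 12 genes, of which 10 were tested in the dorsal libraries. In WT fear against home cage 0 of the 10 passed, with a median of 0.18. In KO against WT after fear 1 was higher, Ntf3, and 4 were lower, with a median of -0.51. Beside Ntrk2, the lower ones were the sorting receptors of the sortilin family, which carry neurotrophins and their receptors between membranes. Sort1 was at -0.75 ± 0.18 (adjusted p = 0.0177), with means of 732 CPM in WT fear and 562 in KO fear. Sorcs1 was at -1.05 ± 0.27 (adjusted p = 0.0189) and Sorcs3 at -1.01 ± 0.30 (adjusted p = 0.0275). In the interaction 1 of the 10 passed, Ntf3. In KO fear against home cage 0 of the 10 passed, with Ngfr, the p75 neurotrophin receptor, at -1.38 ± 0.34 (adjusted p = 0.968), and in KO against WT in the home cage 0 passed.

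Of 44 genes of signalling below Trk receptors, 1 was higher in WT fear than in home cage, a count near the 1.63% share of all genes. The median over the list was 0.15. The gene was the adaptor Crkl, higher by 0.42 ± 0.099 (adjusted p = 0.0457). It went from 54.8 to 68.5 CPM in the group means. In KO against WT after fear 1 of the 44 was higher and 8 were lower, with a median of -0.27, a count near the share of all genes. The lowest adjusted p values were those of Grb2 (-0.42), the adaptor that links receptors to Ras, Sos1 (-0.60), the exchange factor bound to it, Mtor (-0.65), the growth kinase, and Crkl (-0.36). In the interaction, in KO fear and in KO against WT in the home cage, 0 of the 44 passed.

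Among 18 genes of granins and prohormone processing, Cadps2, which primes dense-core vesicles and has been tied to BDNF release, was higher in WT fear by 0.79 ± 0.18 (adjusted p = 0.0382), and it was the 1 gene of the list that passed. Its group means went from 96.2 to 176 CPM with fear conditioning in WT, and were 121 and 124 CPM in KO. In KO against WT after fear Cadps2 was lower by 0.72 on the log2 scale, as were Pam (-0.42), the peptide-amidating enzyme, and Sez6l2 (-0.72), while Chgb, the granin chromogranin B, was higher by 0.52 ± 0.18 (adjusted p = 0.0448). That made 1 higher and 3 lower of 18, with a median of -0.091, which is at the share of all genes.

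The precursors of neuropeptides gave 1 of 18 tested genes in WT fear, Grp, higher by 2.96 ± 0.71 (adjusted p = 0.0467), which encodes gastrin-releasing peptide, with a median of -0.14 over the list. Its fear libraries ran from 1.51 to 27.4 CPM against 0.51 to 1.80 in the home cage, so a part of them overlapped the controls. In KO against WT after fear 2 of the 18 were higher, Cck (0.80), the cholecystokinin gene, and Npy (0.64), the neuropeptide Y gene, and 1 was lower, Grp (-2.48), with a median of 0.17.

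The rapid activity-induced list set the scale. In WT fear 12 of its 26 tested genes were higher and 0 lower, with a median of 0.78, and in KO against WT after fear 7 were lower and 0 higher, with a median of -0.22. Those of lowest adjusted p there were Jun (-0.72), Egr3 (-0.66), Dusp6 (-0.58) and Per1 (-0.88). In the interaction 4 of the 26 passed, all lower, namely Egr2 (-2.75), Dusp6 (-0.86), Junb (-1.15) and Egr1 (-1.38). In KO fear against home cage 0 of the 26 passed, with 22 above 0 and a median of 0.22. In KO against WT in the home cage 0 passed as well, with 22 above 0 and a median of 0.28. Of 30 delayed activity-induced genes, the class that Bdnf and the granins are usually put in, 4 were higher and 1 lower in WT fear, with a median of 0.12. The higher ones were the nuclear receptors Nr4a2 (1.31) and Nr4a3 (0.64), the kinase Sik1 (1.41) and the scaffold gene Homer1 (0.53), and the lower one was Blnk (-1.06), named after its value was seen. In KO against WT after fear 2 of the 30 were higher and 7 lower, among them Nr4a2 (-1.16), Homer1 (-0.51), Nptx1 (-0.74) and Nefm (-0.42). In the interaction 1 passed, Nr4a2, at -1.39. The CA1 and the CA2 and CA3 marker levels given above moved with these comparisons, and their part was not tested. In whole hippocampus 0 genes of the 6 lists passed in the 3 comparisons.

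These list counts rested on few libraries. For KO against WT after fear, 0 genes of the 6 lists passed without WT fear 2, without WT fear 3 or without KO fear 2, when 2, 1 and 1 of all genes passed, and 0 with the 2 groups alone. In WT fear against home cage 5 to 14 of the 26 rapid genes passed in the 17 fits without 1 library, each of them higher. The Trk signalling, granin and neuropeptide lists there had 0 genes past the threshold within B1, and without any of WT fear 2 or 3, WT home cage 2 or 4, KO home cage 4 or 5, or KO fear 2, 3 or 4. In the interaction the rapid list had 0 to 11 lower genes over those 17 fits, and 0 without a batch term.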

How the data were processed

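Polyadenylated RNA of mouse hippocampus was sequenced in 23 libraries, prepared, per the labels' protocols, with a NEBNext Ultra II kit. The values used are raw read counts by gene symbol, deposited by the authors in 2 tables of 24985 symbols each. Per the submitters' processing notes, the tools were HTSeq 0.9.1, STAR, limma, DESeq2 and SAMtools 1.1 on mm10, in no stated order. Their gene annotation is not given in these sources. Of the dorsal symbols, 26 had become dates and were not matched. The deposited normalized tables were not used, and 0 columns of counts were left aside.

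Groups were taken from the labels. Each library counted as 1 replicate. Pairs within a group differed beyond sampling noise (chi-square per gene 5.98 to 61.5). Separately prepared libraries of 1 animal could also do so, so this does not show that the libraries are separate animals. Differences were tested in R 4.3.3 with edgeR 4.0.16 (quasi-likelihood F test, TMM, filterByExpr at 10 counts and a total of 15), two-sided, with Benjamini-Hochberg adjustment over all genes tested and a threshold of 0.05. Dorsal libraries were fitted together with terms for group and batch (14808 genes, 11 residual degrees of freedom), and whole hippocampus with a term for genotype (15453 genes, 3 residual degrees of freedom). Standard errors are the log2 difference divided by the square root of F. Marker levels use a prior count of 2. The script was tested on simulated counts. DESeq2 1.42.0, RLE scaling, no filter, 2 groups only, no batch term, fits within a batch, a replicate block and fits that leave out a library were the alternatives.

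The 7 genes, the 6 pathway lists and the 13 marker lists were chosen with earlier results of these data known. All 7 genes are described. From a list, up to 4 genes with the smallest adjusted p past the threshold were named. The 3 genes most like each of the 7 were those of highest Pearson r over the 17 dorsal libraries, at a mean of 5 CPM or more. Of the symbols, 98.2% (whole) and 98.1% (dorsal) matched GENCODE release M21.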

Additional observations from a re-analysis of the deposited data

Results flagged for a closer look

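Vgf was at 144 CPM in the KO home cage 1 library, while the other 4 libraries of that group lay between 191 and 208 CPM. Its gap to the nearest library was 0.731 of the group's range, above the critical value of 0.71 for 5 samples. Of the 21 groups of 4 or 5 libraries examined for the 7 genes, 1 was marked in this way, and chance marks about 1 in 20. The log2 difference of Vgf between KO and WT in the home cage was 0.088 with that library and did not pass with or without it.

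By edgeR's test the interaction of genotype and fear for Ntf3 was 1.30 on the log2 scale and passed narrowly (adjusted p = 0.0458). The call held in 4 of 17 fits that left out 1 library, and was lost without a batch term (adjusted p = 0.297, edgeR). No KO home cage library was run in B1, the batch of every WT fear library. The mean CPM was lower after fear in WT and not lower in KO, where the values split by batch. It is marked because the difference of the responses was itself tested.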

How the results depend on the processing

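Of 1057 values of the 7 genes under alternatives, 972 kept their direction and their side of the threshold, 35 lost a call, 26 gained one and 24 turned sign, all 24 from values that did not pass. How many of the 7 passed moved with the method, and the cause was not tested. For WT fear against home cage, where the report gives 0, DESeq2, no filter on low counts and a fit of the 2 groups only each gave 1, Ntf3. For KO against WT after fear, where it gives 2, DESeq2 gave 4, no batch term 1 and 2 groups only 0. For the interaction, where it gives 1, no batch term gave 0. Dorsal fits without 1 library each gave 0 to 1 for WT fear and 0 to 5 for KO against WT after fear. For the interaction they gave 0 to 2. They gave 0 throughout for KO fear and KO against WT in the home cage. In whole hippocampus such a fit leaves 1 library in a group, so its counts are left out. The matching counts over all genes are given below.

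The replicate numbers were checked for pairing, and 5 of 28 same-numbered pairs had deviations correlated above 0.1 (range -0.68 to 0.39). In whole hippocampus the 2 libraries of a group deviate by equal and opposite amounts, so each r there is listed for both replicate numbers. Some same-numbered dorsal libraries lie in different batches. The check therefore cannot exclude pairing, and the numbers were not taken to pair the libraries. With the replicate block, 0 of the 7 passed in KO against WT after fear and 0 in the interaction. There Ntf3 was at 1.25 (adjusted p = 0.119) and 1.26 (adjusted p = 0.107). The block turned Bdnf to -0.071 and Vgf to -0.035 in KO against WT in the home cage.

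The other values that turned sign lay near 0 or rested on 1 library. Bdnf in KO against WT in the home cage was -0.046 without a batch term, and -0.045 to 0.066 over fits without 1 library. Ntrk3 in KO fear was 0.062 with 2 groups only, 0.057 within B3 and -0.15 to 0.068 without 1 library. Scg2 in KO against WT in the home cage ran from -0.017 to 0.15. Pcsk1 ran from -0.29 to 0.48 in WT fear, -0.49 to 0.27 in KO against WT after fear and -0.34 to 0.43 in the interaction. In Het against WT, Ntrk2 ran from -0.12 to 0.062 and Ntrk3 from -6.4e-04 to 0.074. In KO against Het, Ntf3 ran from -0.15 to 0.64, Scg2 from -0.033 to 0.049 and Pcsk1 from -0.11 to 0.15.

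The counts over all genes, which set the background, moved more. For WT fear they were 241 in the report, 925 by DESeq2, 528 without a filter, 881 with 2 groups only, 712 without a batch term, 5 within B1 and 15 with the block, and 6 to 829 without 1 library. For KO against WT after fear they were 3298, against 428 with 2 groups only, 1544 without a batch term and 1 with the block, and 1 to 4610 without 1 library. For the interaction they were 71, against 900 by DESeq2, 130 with RLE scaling, 400 without a filter and 0 without a batch term or with the block. Over the fits without 1 library they ran from 0 to 1007. For KO fear they were 0, against 6 by DESeq2, 1 without a batch term and 2 within B3. For KO against WT in the home cage they were 1, against 2 by DESeq2, without a filter and without a batch term, and 1 to 585 without 1 library. In whole hippocampus DESeq2 gave 19 for KO against WT (6 in the report), 139 for Het against WT (0) and 132 for KO against Het (13). No filter gave 3 for Het against WT, and for KO against Het 23, with 7 by the block and by 2 groups only.

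Batch B1 holds each WT fear library and has the fewest reads, 5362773 to 9109104 a library, and Ntf3 and Pcsk1, the genes lowest in CPM, had the largest standard errors in WT fear against home cage. Counts cover every transcript of a gene. Whole hippocampus has 2 libraries a group and 3 residual degrees of freedom.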

Other observations

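The genes whose log2 CPM followed each of the 7 most closely over the 17 dorsal libraries were looked up among 11385 genes, and the same pair was then read in the 6 whole hippocampus libraries. These are descriptions, and the points share group, batch and depth. Bdnf was followed most closely by Capza2, an actin capping protein (r = 0.96, Spearman's rho = 0.97), and r was 0.79 in whole hippocampus. Ntf3 was followed by Ncald, a neuronal calcium sensor (r = 0.94), by Nrn1, the neuritin gene (r = 0.92), and by Mylk3 (r = 0.92), yet r for the same pairs was -0.77, -0.84 and -0.74 in whole hippocampus. Nrn1 was higher in KO than in WT after fear, by 0.58 ± 0.17 (adjusted p = 0.0278, edgeR), as were or were lower 22.3% of all genes. Because Nrn1 was picked for following Ntf3 in these same libraries, its difference is not separate evidence. It was at a mean of 425 CPM in WT home cage and 322 in WT fear, and at 375 and 404 in KO likewise.

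Ntrk2 went most closely with R3hdm2 (r = 0.95) and Ntrk3 with Stx16, a syntaxin (r = 0.94), and r was 0.36 and 0.016 in whole hippocampus. Vgf went with Pex14, a part of the peroxisome import machinery (r = 0.97, and 0.47 in whole hippocampus). Scg2 went with Npy5r, a receptor of neuropeptide Y (r = 0.90), with r at -0.12 in whole hippocampus. Pcsk1 went with Rims3, an active zone protein (r = 0.84), but the rank correlation was 0.55, and WT fear 2 was far above the others for Pcsk1. In whole hippocampus the r of Pcsk1 with Rims3 was 0.69. None of the 7 had another of the 7 among its 3 most alike genes.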
